A study of Oncorhynchus mykiss with 8 samples.

Results

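Probes for the myogenic regulatory factors myod1, myf5 and mrf4 and for the muscle stem cell factor pax7 were described on 8 arrays of rainbow trout RNA. The probes were chosen by the gene symbol of the array's platform annotation, in any case, which gave 4 probes, 1 per gene, of 43,603 in all and of 221 with a symbol. They are A_05_P249259 for myod1, A_05_P249109 for myf5, A_05_P249769 for mrf4 and A_05_P249189 for pax7. No accession of the platform, 0 of 221, was found in the trout RefSeq annotation USDA_OmykA_1.1. That annotation lists a gene named myod with the synonym myod1, a gene LOC100136271 with the synonym myf5, a gene myf6, the more common name of mrf4, and both pax7a and pax7b, so which trout copy a probe measures is not settled. No probe or protein sequence was used here.

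The fish were of the Lyndon strain and were all offspring of neomales, which are genetic females turned into functional males. They were fed ad libitum at one research station, and small and large fish were compared within liver and within muscle. Their age, and the size limits of both groups, were not given in the sources used here. On an array, RNA pooled from small fish carried one dye and RNA pooled from large fish the other, Alexa Fluor 555 or Alexa Fluor 647, with mRNA of 5 fish in a pool. The titles were read to mean that a pair of pools went onto 2 arrays, once in each dye orientation. That gives 2 pool pairs per tissue and 4 in all, and the spread of a mean below is the spread of 2 pool pairs. The labels do not say whether the pools shared fish across pairs or tissues.

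MyoD and Myf5 are transcription factors of the basic helix-loop-helix class that commit precursor cells to the muscle lineage. Mrf4, also called Myf6, acts later in mammals, in differentiating and mature fibres. Pax7 marks satellite cells, the stem cells that lie on muscle fibres and give rise to new myoblasts. Muscle of large fish species such as trout keeps adding new fibres long after hatching. None of these 4 factors is known as a product of liver cells, so liver serves as the background tissue.

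The arrays give 1 value per probe, which was read as the log2 ratio of its channels. The sources do not say which channel is the numerator. The sign is therefore that of the table on arrays whose large fish carry the 555 dye, and it is not translated into more or less RNA in either size of fish. The sign was read in 2 ways. In the turned reading the deposited values are ratios in a fixed dye direction, so that the sign is turned wherever large fish carry the 647 dye and the arrays of a pair are averaged. In the as-deposited reading the values are taken as already turned, and the arrays of a pair are averaged with no sign changed. The mean of one reading is the dye part of the other. Only ratios were used, so the level of a gene, whether its probe lay above background, and whether muscle or liver RNA carried its defining markers at a high level were not analysed here. In bulk tissue, fewer cells of a type and less RNA per cell cannot be told apart.

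Across all probes the arrays of a pair agreed little. After the turn their values correlated with r = 0.21 and 0.04 in the liver pairs 1 and 2 and with r = 0.08 and -0.08 in the muscle pairs, over 38,899 to 42,449 probes, which are not independent replicates. Ratios were spread more widely in liver, with a standard deviation of 0.55 to 0.92 across probes, than in muscle, with 0.32 to 0.33, and array medians lay between -0.08 and 0.11. In liver the medians were 0.11 and 0.08 when large fish carried the 555 dye and -0.08 and -0.05 with the dyes exchanged. All 4 probes had a value on all 8 arrays and so were tested in both tissues.

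In muscle, the mrf4 and myod1 probes deviated furthest from 0 among the 4 genes in the turned reading, both to the negative side, while myf5 lay close to 0 and the pool pairs of pax7 had opposite signs. No call was made for any of them after adjustment over all probes. Under the as-deposited reading all 4 means had the other sign and lay between -0.15 and 0.17.

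The deposited muscle values of mrf4, when large fish carried the 555 dye, were -0.30 in pool pair 1 and -0.51 in pool pair 2. On the exchanged arrays they were 0.80 and 0.28. The value thus changed sign with the dye orientation in both pool pairs, and 8.35% of all muscle probes did so in this order. Turned, mrf4 was negative on all 4 arrays, with pair values of -0.55 and -0.40 and a mean ± SD over 2 pool pairs of -0.48 ± 0.11, a ratio of 1.39-fold. The 95% interval of that mean in limma was -0.74 to -0.21. Its unadjusted p was 0.00738 and its adjusted p was 1. As deposited, the pair means of mrf4 were 0.25 and -0.11 and its mean was 0.07 ± 0.26.

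The deposited muscle values of myod1 were -0.74 and 0.22 when large fish carried the 555 dye. On the exchanged arrays they were 0.41 and 0.80. The value of 0.22, from pool pair 2, stood on the same side as the values of the exchanged arrays, so the arrays of that pair did not mirror each other. Turned, the pair values were -0.57 and -0.29 and the mean was -0.43 ± 0.20 (SD, n = 2 pool pairs), a ratio of 1.35-fold with an interval of -0.74 to -0.12. Limma gave an unadjusted p of 0.0169 and an adjusted p of 1. The arrays of pool pair 2, which hold the same RNA, differed by 1.02 after the turn, more than the mean itself. As deposited, the pair means were -0.17 and 0.51, which have opposite signs, and their mean was 0.17 ± 0.48.

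For myf5 the deposited muscle values were -0.04 and -0.11 when large fish carried the 555 dye, and 0.12 and 0.13 with the dyes exchanged. Turned, myf5 was negative on all 4 arrays like mrf4, and averaged -0.10 ± 0.03 (SD, n = 2 pool pairs). Its interval in limma, -0.51 to 0.30, spans 0, and its unadjusted p was 0.530. With muscle fitted alone, without the liver pairs in the spread, myf5 had an interval of -0.31 to 0.11 and an unadjusted p of 0.269 in limma. As deposited its mean was 0.026 ± 0.019.

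The stem cell marker pax7 had deposited muscle values of 0.48 and -0.68 when large fish carried the 555 dye. On the exchanged arrays it had -0.09 and -0.30. The first of these 4 values was positive and the other 3 were negative. Turned, its pair values were 0.28 and -0.19, and the mean of 0.05 ± 0.34 (SD, n = 2 pool pairs) had an interval of -0.36 to 0.46. Without pool pair 1 or without pool pair 2 the mean was -0.19 or 0.28, so its sign rested on the pair kept. As deposited, the pair means were 0.19 and -0.49, and their mean was -0.15 ± 0.48.

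**Figure D1:**
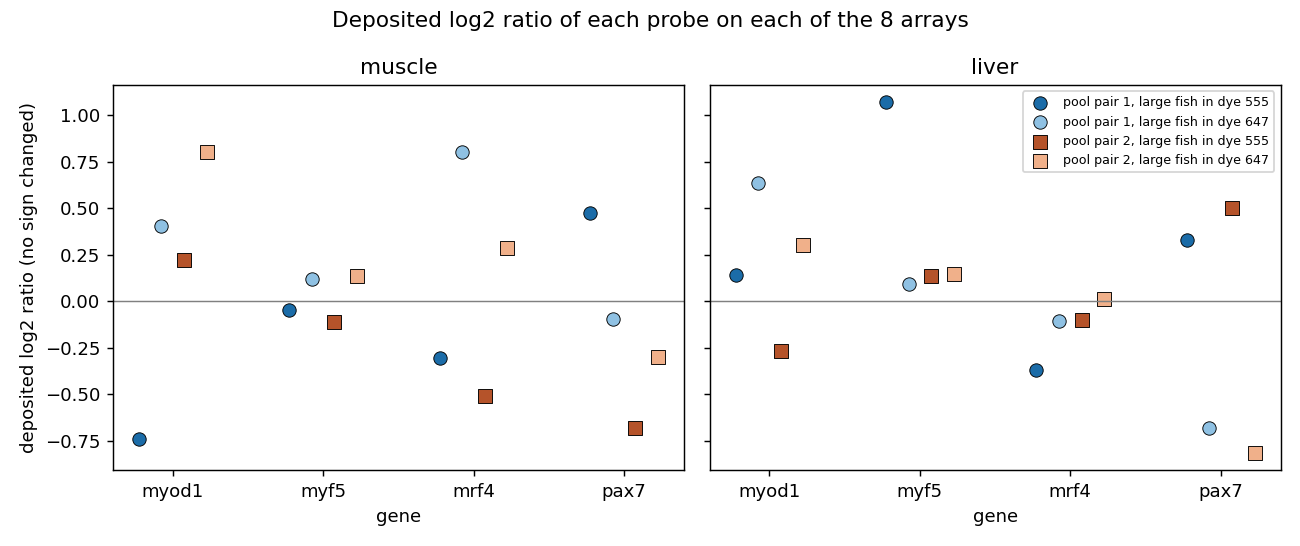
Deposited log2 ratio (vertical axis, no sign changed) of the probes of myod1, myf5, mrf4 and pax7 on each of the 4 muscle arrays (left) and 4 liver arrays (right), with 1 point per array, colour and shape giving the pool pair and the dye of the large fish. In muscle both 555 points of mrf4 lie below 0 and both 647 points above it, and in liver pax7 shows the opposite order, with 0.33 and 0.50 against -0.68 and -0.81.

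Across the 4 genes in muscle, 3 turned means were negative, as were 46.7% of those of all probes, and 1 was positive, with a median of -0.27 against 0.01 over all 41,652 probes tested. The median size of the mean without its sign was 0.27 for the 4 genes and 0.08 for all probes. The mean of mrf4 was larger in size than those of 97.3% of muscle probes, that of myod1 larger than 96.5%, that of myf5 larger than 58.6% and that of pax7 larger than 31.1%. Of the 4 probes, 2 were negative on all 4 turned arrays, mrf4 and myf5, as were 8.35% of all probes. With limma 0 of the 4 passed an adjusted p of 0.05, as did 0% of all probes, and 2 had an unadjusted p under 0.05, against 4.53% of all probes. In the as-deposited reading 1 mean was negative, against 49% of all probes, and 3 were positive, 0 genes had 1 sign on all 4 arrays, against 10.6% of all probes, and 0 had an unadjusted p under 0.05, against 1.63%. With muscle fitted alone, so that the wider spread of liver did not enter, the turned adjusted p was 0.161 for mrf4 and 0.218 for myod1 in limma, and their unadjusted p was 0.00241 and 0.00700, where 12.1% of all probes had an unadjusted p under 0.05.

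**Figure D2:**
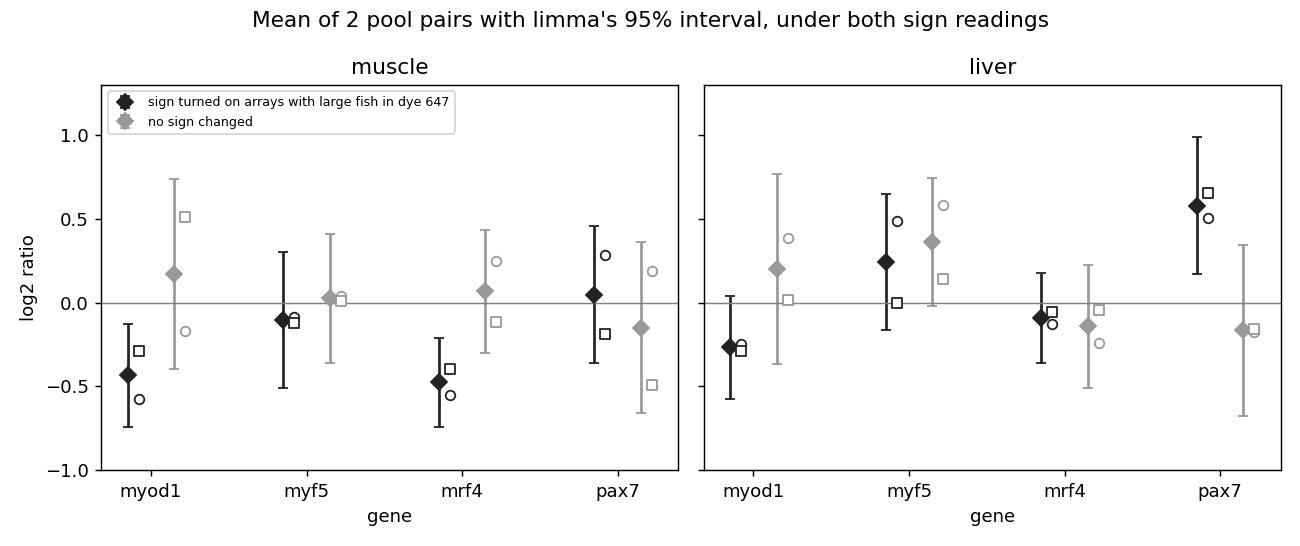
Mean log2 ratio of 2 pool pairs (filled diamonds) with limma's 95% interval for each gene in muscle and liver, in the turned reading (black) and the as-deposited reading (grey), with open circles for pool pair 1 and open squares for pool pair 2. The turned intervals of mrf4 and myod1 in muscle and of pax7 in liver do not include 0, whereas every as-deposited interval does.

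In liver the gene with the largest turned deviation was pax7, on the positive side, and the 3 myogenic regulatory factors lay closer to 0. Again no probe of the 4 passed. The deposited liver values of pax7 were 0.33 and 0.50 when large fish carried the 555 dye. On the exchanged arrays they were -0.68 and -0.81. Both pool pairs thus changed sign with the dyes, in the opposite order to mrf4 in muscle. Turned, pax7 was positive on all 4 liver arrays, with pair values of 0.50 and 0.66. Its mean was 0.58 ± 0.11 (SD, n = 2 pool pairs), a ratio of 1.49-fold, with an interval of 0.17 to 0.99 and an adjusted p of 0.190 in limma. Of all liver probes 17.7% were positive on all 4 turned arrays, and 87.5% had a mean smaller in size than that of pax7. As deposited, its pair means were -0.18 and -0.16 and their mean was -0.17 ± 0.01, so the sign rests on the reading.

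The dark corner spot was, like pax7, positive on all 4 turned liver arrays, as were 17.7% of all liver probes. The dark corner control, meant to give no signal, had deposited values of 0.76 and 0.71 when large fish carried the 555 dye and -1.26 and -0.12 with the dyes exchanged, which gives turned pair values of 1.01 and 0.41. The negative control spot had a turned liver value of 1.86 in pool pair 2 and lacked a value on 1 array of pool pair 1. For the bright corner control the turned liver pair values were 0.14 and -0.30, with opposite signs. The other control rows were not described. In muscle the turned pair values were 0.40 and -0.03 for the dark corner and 0.002 and 0.14 for the negative control. The bright corner had deposited muscle values of 0.37 and 0.37 when large fish carried the 555 dye. With the dyes exchanged it had -0.50 and -0.03, which gives turned pair values of 0.44 and 0.20. The part of the control signal in the liver value of pax7 or in the muscle values of the 4 genes was not tested, since no intensities were used.

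The deposited liver values of myf5 were 1.07 and 0.14 when large fish carried the 555 dye. On the exchanged arrays they were 0.09 and 0.15. All 4 were positive as deposited, which 5.54% of liver probes were, and the first stood well above the other 3. As deposited, the mean was 0.36 ± 0.31 (SD, n = 2 pool pairs), with an interval of -0.02 to 0.74 and an adjusted p of 0.508 in limma. Turned, the pair values were 0.49 and -0.0040 and the mean was 0.24 ± 0.35. The array with 1.07 thus carries the deviation in both readings. Without pool pair 2 the turned value was 0.49, and without pool pair 1 it was -0.0040. In limma the former had an adjusted p of 0.0429, but that fit holds a single liver pair and takes its spread from the 2 muscle pairs alone, whose arrays vary less, and 6765 of 36,053 liver probes passed in it.

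For myod1 the deposited liver values were 0.14 and -0.27 when large fish carried the 555 dye, and 0.64 and 0.30 with the dyes exchanged. The pair values after the turn were close to each other, -0.25 and -0.29, with a mean ± SD of -0.27 ± 0.03 over 2 pool pairs and limma's adjusted p at 0.274. That closeness hides a gap of 0.78 between the arrays of pool pair 1, against 0.03 in pool pair 2. With liver fitted alone the turned adjusted p of myod1 in limma was 0.600. As deposited the mean was 0.20 ± 0.26. The differentiation factor mrf4 had the smallest turned liver mean of the 4, with deposited values of -0.37 and -0.10 when large fish carried the 555 dye and of -0.11 and 0.01 with the dyes exchanged. Its turned mean was -0.09 ± 0.05 and its as-deposited mean was -0.14 ± 0.14.

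Over the 4 genes in liver the turned means were negative for 2, against 45.3% of all probes, and positive for 2, with a median of 0.07 against 0.04 over all 36,053 probes. The median size without the sign was 0.25 for the 4 genes and 0.20 for all liver probes. With limma 0 of the 4 passed the threshold in either reading, as did 0% of all liver probes. Turned, 1 of them, pax7, had an unadjusted p under 0.05 (0.0165), as did 20.4% of all liver probes. As deposited 0 of the 4 did, against 9.97%.

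**Figure D3:**
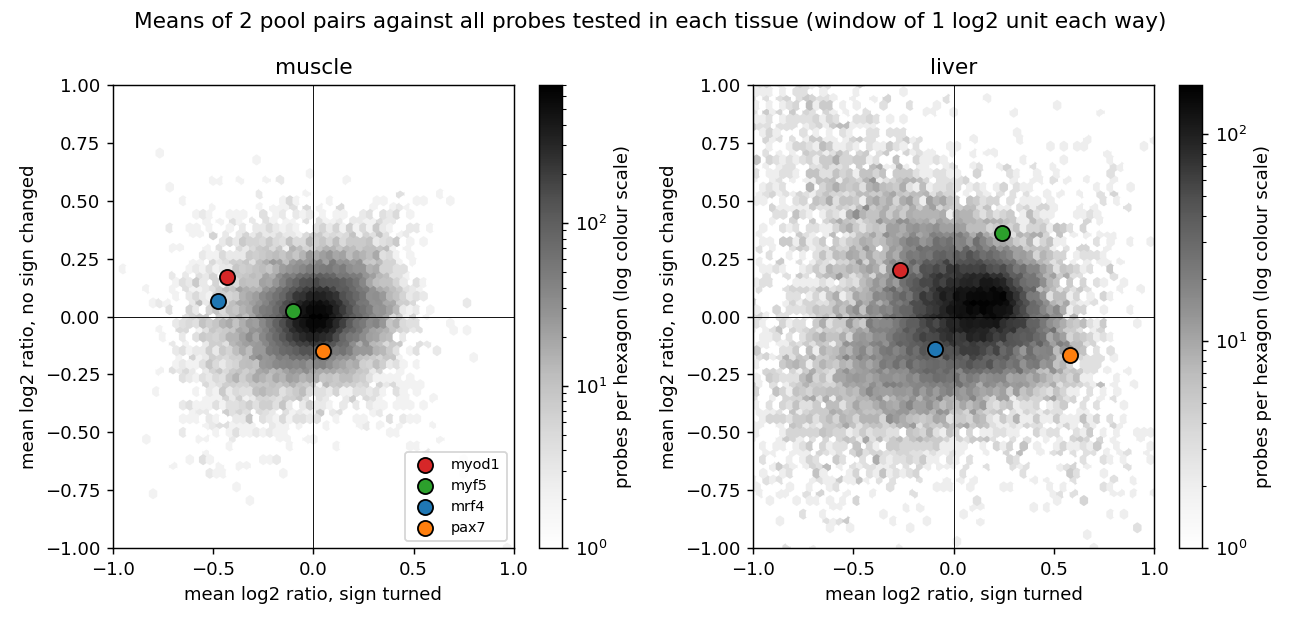
Turned mean (horizontal axis) against as-deposited mean (vertical axis) of log2 ratios in muscle and liver, with all probes tested as grey hexagons and the 4 genes as coloured points, in a window of 1 log2 unit each way that leaves out more extreme probes. In muscle mrf4 (-0.48) and myod1 (-0.43) lie at the left edge of the dense cloud. In liver the cloud is wider and pax7 (0.58) lies within its right part, with 87.5% of liver probes smaller in size.

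The liver mean was also set against the muscle mean in one fit. The turned difference, liver minus muscle, was 0.38 for mrf4, from means of -0.09 and -0.48, with an interval of 0.01 to 0.76, an unadjusted p of 0.0481 and an adjusted p of 0.556 in limma. For pax7 it was 0.53, with an interval of -0.05 to 1.11, for myf5 0.34 with an interval of -0.23 to 0.92, and for myod1 0.16 with an interval of -0.27 to 0.60. Leaving out 1 pool pair moved the difference to between 0.098 and 0.59 for myf5, 0.023 and 0.31 for myod1 and 0.30 and 0.77 for pax7, the lowest without liver pair 1, muscle pair 1 and muscle pair 2 and the highest without liver pair 2, muscle pair 2 and muscle pair 1. All 4 turned differences were positive, as were 50.9% of those of all probes, and 0 of them passed, as did 0% of 34,757 probes. An unadjusted p under 0.05 was found for 1 of the 4 and for 8.97% of all probes. With arrays centred on their median the mrf4 difference was 0.31. In that fit 0 of the 4 had an unadjusted p under 0.05 in limma, against 3058 of 34,757 probes. As deposited, the difference was -0.21 for mrf4, -0.02 for pax7, 0.34 for myf5 and 0.03 for myod1, and all of these intervals included 0. Only the sign for myf5 and myod1 was shared by both readings.

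The likeness of the 4 genes to each other was measured with the cosine of their 8 array values, each array first divided by its standard deviation across probes. A cosine of 1 means proportional values and -1 mirrored ones, and it is the same under both readings. It is a description over 8 arrays that share RNA within a pool pair. Over all 8 arrays it was 0.495 for myod1 and mrf4, 0.284 for myod1 and myf5 and 0.152 for myf5 and mrf4. The lowest was that of myod1 with pax7, -0.720, with -0.736 in muscle and -0.798 in liver. On the 4 muscle arrays alone myf5 and mrf4 ran close together, with 0.914, and on the 4 liver arrays they ran against each other, with -0.971. Each of these rests on 4 arrays of 2 pool pairs, and how many probe pairs reach such values was not computed. The deposited myf5 values lay between -0.11 and 0.13 in muscle. In liver one of them was 1.07 and the others at most 0.15.

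Among 94 other probes with a gene name and a value on all 8 arrays, the one most like mrf4 was a probe of hn1l with a cosine of 0.870, followed by mkk6a, a kinase that activates p38, with 0.839. The likeness of hn1l came from the muscle arrays, where it was 0.901, against -0.335 on the liver arrays, whereas that of mkk6a was 0.936 and 0.504. The same probes came first for myod1, with 0.808 and 0.730. With myod1, hn1l had 0.813 on the muscle arrays and 0.986 on the liver arrays, and mkk6a had 0.782 and 0.596. The probe least like mrf4 was one of mlc-2, a myosin light chain, with -0.955, and the least like myod1 was fshr, a gonadotropin receptor, with -0.799, from -0.865 on the muscle arrays and 0.748 on the liver arrays. For myf5 the nearest were psmb9b, a proteasome subunit, with 0.842 and tyrp-1b, of melanin synthesis, with 0.787, and the farthest was cyp1a, an enzyme that oxidises foreign compounds, with -0.907. On the muscle arrays alone psmb9b and myf5 had a cosine of -0.437, so that likeness came from liver. For pax7 the nearest were fxyd8, with 0.797, and a probe of the plasma protein gene trf, with 0.725, and the farthest was rig, with -0.779. On the liver arrays alone the trf probe had 0.124 and rig -0.361, against 0.843 and -0.981 on the muscle arrays. Of all probes with 8 values, 0.725% had a higher cosine with mrf4 than hn1l had, and 2.49% a higher one with pax7 than the trf probe had.

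Plasma protein genes mark liver. In the as-deposited reading only, their probes went from positive in muscle pool pair 1 to negative in pool pair 2, as pax7 and mrf4 did. This held for all 6 probes of the 4 liver genes measured, 3 of them of trf, with pair means of 0.18 to 0.79 and of -1.44 to -0.64. The order also held for 2 of 3 probes of hba, an alpha globin gene of red blood cells. It held for 0 of 1 probes of the adipocyte gene pparg. The share of all muscle probes with this order was not computed, so how common it is on these arrays is not known. The trf probe with 0.79 and -1.44 had been picked above for its likeness to pax7, so its order here goes with that choice. The pair means of alb1, which encodes albumin, were 0.66 and -0.93 and those of antithrombin 0.32 and -0.64, against 0.19 and -0.49 for pax7. For mrf4 they were 0.25 and -0.11, the same order as for pax7. For myf5 they were 0.04 and 0.01, and for myod1 they ran the other way. Of 12 liver symbols in the marker lists 4 had probes, of 3 red blood cell symbols 1, of 5 adipocyte symbols 1 and of 6 leukocyte symbols 0. Turned, the muscle means of the 6 liver probes were negative, from -0.46 to -0.11, as were those of 46.7% of all muscle probes. That is the side of mrf4 and myod1, and the turned means of hba ranged from -0.35 to 0.24. The turned pair values of alb1 were -0.36 and -0.03 and those of antithrombin -0.15 and -0.13. For pax7 they were 0.28 and -0.19, so the order shared with pax7 was absent in the turned reading. The part of liver or blood RNA in the muscle values of the 4 genes was not tested.

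Of 24 symbols listed for muscle stem cells and myoblast factors, 5 were on the platform, the 4 genes above and myod2, a second MyoD gene. Its probe had deposited muscle values of -0.12 and -0.10 when large fish carried the 555 dye and of 0.09 and -0.09 with the dyes exchanged. Its turned muscle mean was -0.06 ± 0.07 (SD, n = 2 pool pairs), against -0.43 ± 0.20 for the myod1 probe. As deposited, the muscle mean of myod2 was -0.05 ± 0.06. In liver it lacked a value on 1 array and was not tested. The symbols myod1c, a further MyoD copy, and gdf-8, which is myostatin, the secreted inhibitor of muscle growth, were added after the platform's symbols had been read. In muscle myod1c had a turned mean of -0.10 ± 0.08 and an as-deposited mean of 0.19 ± 0.11, and gdf-8 had -0.15 ± 0.20 and 0.05 ± 0.03. In liver myod1c had a turned mean of 0.20 ± 0.09, and gdf-8 lacked a value on 1 array. Whether the myod1, myod1c and myod2 probes bind transcripts of each other's genes was not analysed here.

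Genes of the finished muscle fibre, which lie downstream of the myogenic factors, were looked up as well. Of 19 fibre symbols 2 had probes. The parvalbumin gene prvb, whose protein buffers calcium in fast fibres, averaged 0.27 ± 0.07 (SD, n = 2 pool pairs). The 4 probes of mlc-2 had means of 0.47 ± 0.01, 0.30 ± 0.05, 0.06 ± 0.08 and -0.12 ± 0.07. Only the last of these fibre means was negative, where 46.7% of all muscle probes had a negative turned mean. The mlc-2 probe with 0.30 was the one picked above as least like mrf4, so its positive side goes with that choice. As deposited prvb had 0.19 ± 0.15 and the mlc-2 probes, in the same order, had 0.26, 0.0013, 0.21 and -0.059. In that reading the means of myod1, myf5 and mrf4 were positive too, while those of pax7 (-0.15) and myod2 (-0.05) were negative. Fibre genes and myogenic factors thus did not lie on opposite sides as groups. The kinase gene mkk6a, named above for its likeness to mrf4, had a turned muscle mean of -0.37 ± 0.13 and was negative on all 4 turned arrays. Both go with the way it was chosen, since mrf4 was itself negative on all 4. In muscle 0 of these probes passed in limma, as did 0% of all probes, and all had an adjusted p of 1.

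**Figure D4:**
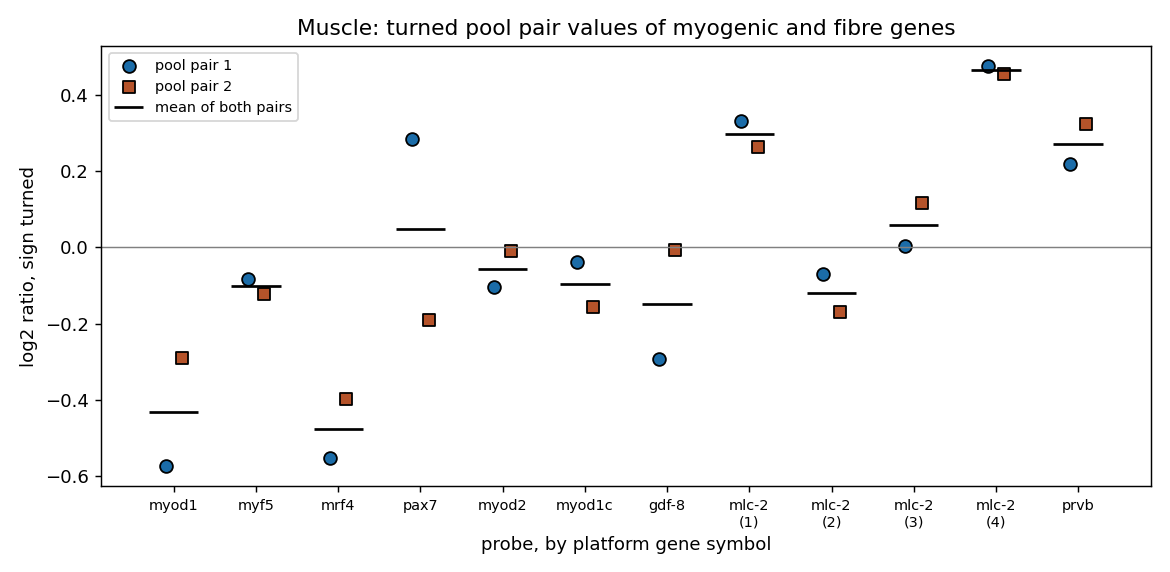
Turned log2 ratio in muscle of each pool pair (circles for pair 1, squares for pair 2) and their mean (line) for the probes of the myogenic factors, pax7, myod2, myod1c, gdf-8, mlc-2 (4 probes in order of probe number) and prvb. The pair values of mrf4 (-0.55 and -0.40) and myod1 (-0.57 and -0.29) lie below those of the other probes apart from the gdf-8 value of pair 1 (-0.29), and a probe of mlc-2 (0.47 and 0.46) lies highest.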

How the data were processed

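Transcript ratios were taken from the series' value table, with 8 arrays and 43,663 rows, of which 60 control rows were left out of the tests. The authors' deposited values were read as log2 ratios, because 2 to the power of the value lay within 0.05 thousandths of a ratio with 3 decimals for 99.2 to 99.8% of the values with a ratio of 0.2 to 2 on each array, and for 10.7 to 14.8% with the sign turned. The scanner, background correction, normalization and direction are not given in the sources used here, and the number of pool pairs limits the precision. Arrays of a pool pair were averaged, and limma 3.58.1 (R 4.3.3) was run on the 4 pair values of each probe, with 1 mean per tissue and a shared spread. Probes with a value on all 4 arrays of a tissue were tested, two-sided, p-values were adjusted by Benjamini-Hochberg, and calls were made at 0.05. Residual degrees of freedom were 2 and prior ones 2.21. The script was tested on simulated data, with effects larger than any mean of the 4 genes. That test does not show whether effects of the reported size could be called. Nothing in the labels says that pools were reared separately, so p-values measure only the spread between these pools. Every chosen probe is named, with the 2 named genes most like it and the 1 least like it by cosine. The genes and marker lists were chosen with earlier results of these data known. Alternatives covered sign reading, centring, scaling, spread, missing values, moderation, dye orientation and left-out pool pairs.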

Additional observations from a re-analysis of the deposited data

How the results depend on the processing

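Direction rested on the sign reading for 8 of 12 means. The other 4 kept their sign, the liver means of myf5 and mrf4 and the liver minus muscle differences of myf5 and myod1. With no sign changed, the muscle means became 0.17 for myod1, 0.0255 for myf5, 0.0681 for mrf4 and -0.15 for pax7, the liver means 0.20 for myod1 and -0.17 for pax7, and liver minus muscle -0.21 for mrf4 and -0.0175 for pax7. These as-deposited means within a tissue were the same with each tissue fitted alone. Only that as-deposited fit of each tissue alone was added after seeing the data, while the turned one was planned. Centring, scaling to one spread, fitting tissues alone, the random block, a looser missing-value filter, and trend and robust moderation turned no direction and passed 0 of the 4 probes. With only the 555 arrays pax7 in muscle was -0.10, and with only the 647 arrays myf5 was -0.12 and mrf4 0.0489 in liver. Leaving out 1 pool pair gave 0 to 1 of the 4 probes in liver (myf5), -0.19 to 0.28 for pax7 in muscle, -0.0040 to 0.49 for myf5 in liver, and 0 to 3, 0 to 6765 and 0 to 3699 passing probes in muscle, liver and their difference. Without a liver pair the spread comes from the 2 muscle pairs alone, and 6270 or 6765 liver probes passed, while without a muscle pair it comes from the liver pairs and 0 did. Scaling and muscle fitted alone passed 3 muscle probes, none of them of these 4 genes. The random block over all 8 arrays passed 2478 liver probes and 0 of the 4, with a within-pair correlation of -0.15, which counts arrays of the same RNA as more than separate replicates. With the replicate block 0 of 34,757 probes passed for liver minus muscle, 2139 had an unadjusted p under 0.05, and the mrf4 difference of 0.38 had an adjusted p of 0.709 in limma. The main fit had no such block, because the labels do not say whether same-numbered liver and muscle pools were of the same fish. Deviations of these pools correlated with r = 0.067 across probes. That value cannot settle the question, since different tissues of the same fish need not deviate alike.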
